A study of Homo sapiens with 18 samples.

Results

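The response to A-485 was compared between SKMEL5 and WM2664, a pair of human melanoma cell lines with high MITF, on the 12 arrays of these lines out of 18 in the series. A-485 inhibits the acetyltransferase activity of p300 and CBP, the coactivators encoded by EP300 and CREBBP. The 8 groups were SKMEL5 with A-485 and with DMSO, and WM2664 with A-485 and with DMSO, each at 6 h and at 24 h. Each A-485 group is 1 array and each DMSO group is 2 arrays, the dose is labelled as 3.0 mM (a unit that is high for a compound in culture and could not be checked here), and all the cells grew in RPMI with 10% FBS. The study's design text speaks of sensitive and resistant lines but assigns no line to either class.

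For each gene, the change with A-485 (A-485 minus DMSO, log2) in WM2664 was subtracted from the change in SKMEL5, at 6 h, at 24 h and averaged over both times. A positive difference means that SKMEL5 fell less or rose more than WM2664, and a negative difference that SKMEL5 fell more or rose less. Of 19775 genes on the array with 1 symbol, 13696 were tested, and the description keeps to the 7243 with a mean scaled intensity of at least 128, or 4 times the floor of 32, in each of the 4 DMSO groups, so that either line could fall. Just inside that limit were SHPRH and IFT172, with 24 h differences of -0.06 and 0.25, and just outside it were ZNF274 and ZFP1, with 0.59 and -0.29. Because each A-485 group is 1 array, the p-values rest on the spread between DMSO arrays, including those of A375, another line of the series. No label says whether replicate arrays are separate cultures, so that spread may be technical. The lone A-485 arrays are assumed to vary as the DMSO arrays do.

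MITF is the transcription factor that sets melanocyte identity, and it drives the genes of pigment synthesis and a wider set of lineage genes. p300 and CBP acetylate histones at enhancers and promoters, and lineage genes in melanocytic cells lean on such enhancers. Proliferating cells express DNA replication genes in S phase under the E2F factors, and mitotic genes later in the cycle through promoters that carry a CHR element and CCAAT boxes.

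All 7 melanocyte markers on the array reached 128 in these lines (MITF, SOX10, TYR, TYRP1, PMEL, MLANA and S100B), none of 8 leukocyte markers did, and 5 of 10 fibroblast and 4 of 11 keratinocyte and epithelial markers did. Negative intensities made up 20.3% to 22.9% of each array, and 75th percentiles ran from 132 to 209 before scaling. A group of 3 DMSO arrays stood apart by low signal of transcripts of another line. The WM2664 DMSO array of 6 h, replicate 1, carried a median 1.87% of the SKMEL5 level over 23 genes, the A375 DMSO array of 6 h, replicate 1, carried 0.734% of the SKMEL5 level, and the WM2664 DMSO array of 24 h, replicate 2, carried 0.77% of the A375 level. Other pairs of array and line ran from -0.704% to 0.295%. Counts are given with and without these 3 arrays.

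More genes differed between the lines at 24 h than at 6 h. In SKMEL5 at 6 h, A-485 changed 2145 of the 7243 genes (29.6%) and in WM2664 2559 (35.3%), with limma and Benjamini-Hochberg adjustment over 13696 genes; at 24 h it changed 3458 (47.7%) in SKMEL5 and 3218 (44.4%) in WM2664. The line difference itself passed an adjusted p of 0.05 for 289 genes (3.99%) at 6 h, 154 positive (2.13%) and 135 negative (1.86%), and for 1146 genes (15.8%) at 24 h, 540 positive (7.46%) and 606 negative (8.37%). Averaged over both times, 1167 genes (16.1%) passed, 549 positive (7.58%) and 618 negative (8.53%). At least 2-fold were 63 of these at 6 h (42 positive, 21 negative) and 313 at 24 h (121 positive, 192 negative). The median standard error of a difference was 0.15 at either time. Without the 3 arrays that stood apart, 201 genes passed at 6 h, 773 at 24 h and 847 averaged. With no scaling between arrays, 0 passed in limma at 6 h, where 173 had an unadjusted p under 0.05, and 160 passed at 24 h, 13 positive and 147 negative.

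Of the 154 genes positive at 6 h, 80 were positive at 24 h too, which is 51.9% of the 6 h genes and 14.8% of the 24 h genes. Of the 135 negative at 6 h, 67 were negative at 24 h, 49.6% and 11.1%. Another 6 and 7 changed direction. The difference at 24 h departed from that at 6 h for 355 genes (4.9%), toward higher values in SKMEL5 for 114 (1.57%) and toward lower ones for 241 (3.33%). Among the 606 genes negative at 24 h, 208 fell in both lines, 197 fell in SKMEL5 with no call in WM2664, and 48 fell in SKMEL5 and rose in WM2664. A further 106 rose in WM2664 with no call in SKMEL5, and 42 rose in both lines. Among the 540 positive, 146 fell in both lines, 172 fell in WM2664 with no call in SKMEL5, and 54 rose in SKMEL5 and fell in WM2664. A further 128 rose in SKMEL5 with no call in WM2664, and 35 rose in both lines.

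**Figure D1:**
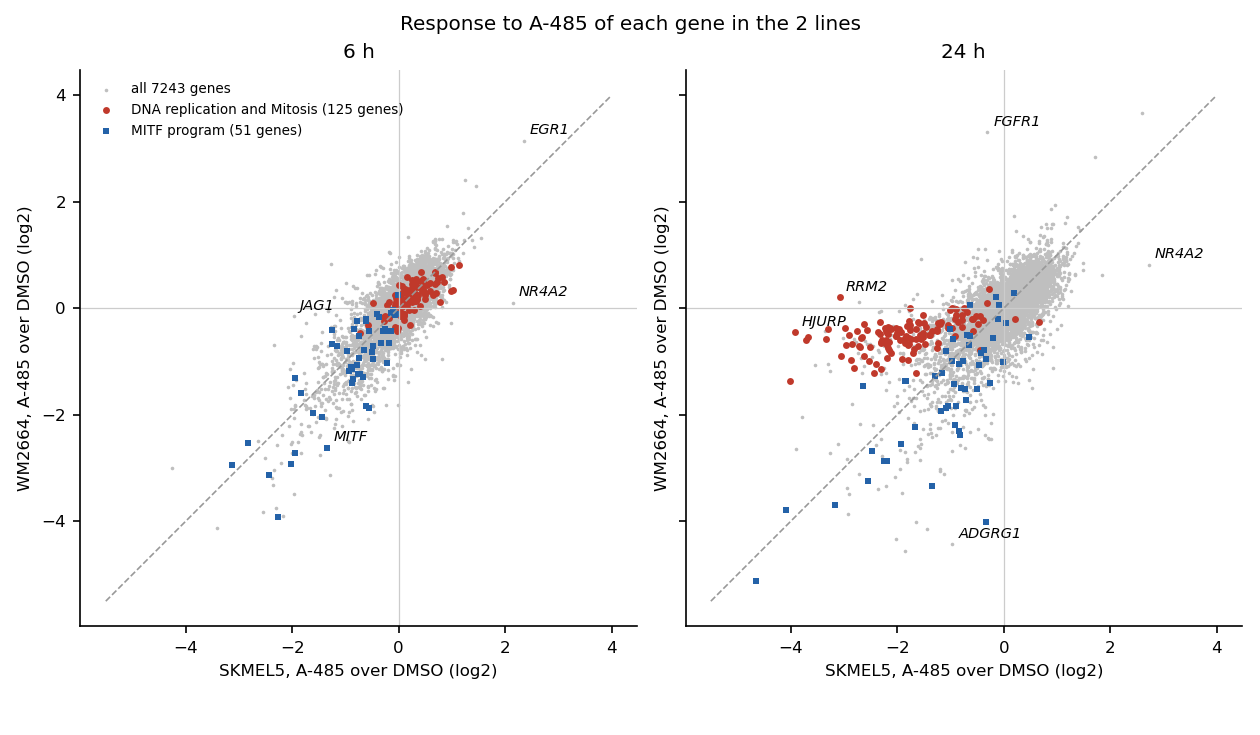
Each point is 1 of the 7243 genes, with its change under A-485 (log2, A-485 over DMSO) in SKMEL5 on the x axis and in WM2664 on the y axis, at 6 h (left) and 24 h (right), the dashed line marking equal change. The 125 DNA replication and Mitosis genes (red) lie near the line at 6 h and spread to the left at 24 h, while many of the 51 MITF program genes (blue squares) lie below it.

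Cell cycle genes separated the lines at 24 h. Of 46 DNA replication genes, 41 had a negative difference called at 24 h and 0 a positive one. Their median difference was -1.22, against a median of 0 and 8.37% negative calls in the 7243 genes. Of 79 Mitosis genes, 69 had a negative difference called at 24 h, with a median of -1.32. At 6 h, 0 of the 46 and 2 of the 79 (CENPN at 0.36 and KIF15 at 0.68) differed, with medians of -0.10 and 0.07. Without the 3 arrays that stood apart, 34 and 57 were called negative at 24 h, and with no scaling 21 and 44. In WM2664 at 24 h, 42 of the 46 and 75 of the 79 lay below both DMSO arrays, and in SKMEL5 45 and 78 did. The share of all genes below both arrays was not counted. Called lower at 24 h in WM2664 were 25 of the 46 and 58 of the 79, against 1498 of all 7243 genes, and 2 of the 46 were called higher. In SKMEL5, 45 and 76 were called lower, against 1588 of all 7243 genes.

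On the log2 scale, DNA replication genes averaged 7.60 on the A-485 array of SKMEL5 at 24 h, against 9.35 and 9.28 on its DMSO arrays. In WM2664 they averaged 9.17 with A-485, against 9.58 and 9.56 with DMSO. Mitosis genes averaged 7.58 with A-485 in SKMEL5 at 24 h, against 9.45 and 9.42 with DMSO, and 9.43 with A-485 in WM2664, against 9.96 and 9.97 with DMSO. So both lists were lower with A-485 in both lines at 24 h, by a median of -1.71 and -1.85 in SKMEL5 and of -0.38 and -0.51 in WM2664. At 6 h they were slightly higher with A-485 in both lines. Mitosis genes then averaged 10.01 in SKMEL5 with A-485, against 9.72 and 9.71 with DMSO, and 10.14 in WM2664 with A-485, against 9.94 and 9.93 with DMSO. In bulk RNA, fewer cells in a phase of the cycle and less RNA of these genes per cell cannot be told apart.

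**Figure D2:**
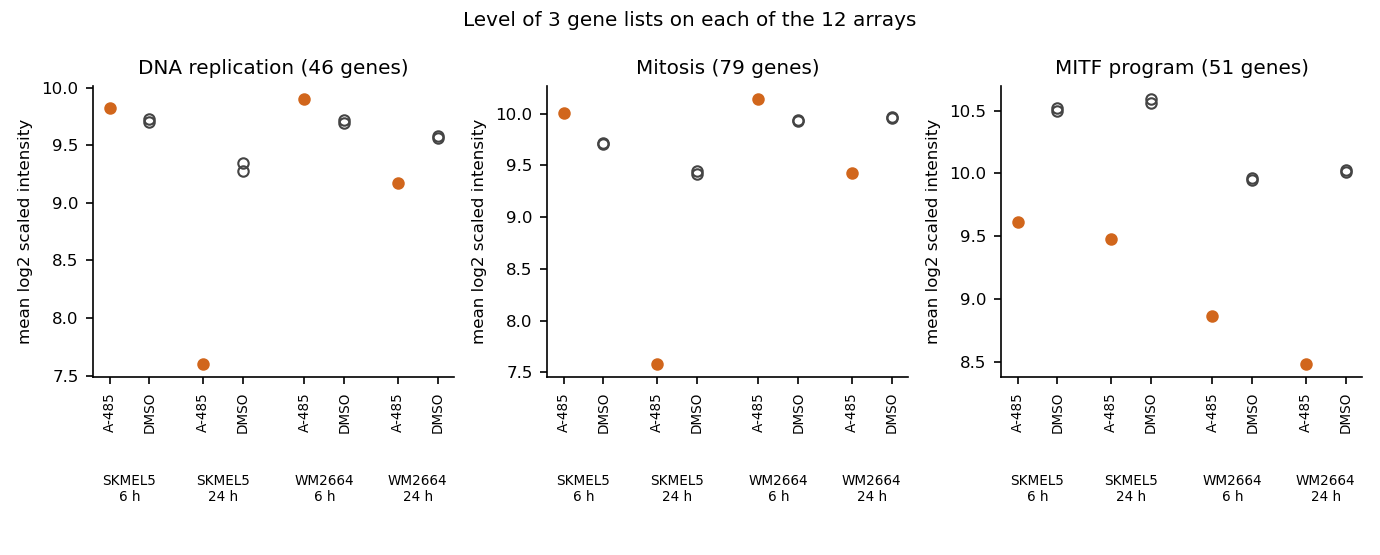
Mean log2 scaled intensity of the members of 3 gene lists on each of the 12 arrays, A-485 (filled orange) left of DMSO (open), SKMEL5 left of WM2664. The axes do not start at 0. DNA replication and Mitosis genes drop to 7.60 and 7.58 with A-485 in SKMEL5 at 24 h, and the MITF program is lowest with A-485 in WM2664 at 24 h, at 8.48.

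RRM2, the small subunit of ribonucleotide reductase, had a scaled intensity of 341 with A-485 in SKMEL5 at 24 h, against 2973 and 2790 with DMSO. In WM2664 it had 4371 with A-485, against 3708 and 3847 with DMSO. The SKMEL5 A-485 array was far below its controls and the WM2664 one above its own, and the difference was -3.29 ± 0.09 (SE, limma, adjusted p = 1.38e-06). HJURP, the chaperone that places the centromeric histone, had 34.4 with A-485 in SKMEL5, against 517 and 523 with DMSO, and 792 with A-485 in WM2664, against 1129 and 1024 with DMSO. Its difference was -3.48 ± 0.11 (SE, adjusted p = 3.45e-06), and its SKMEL5 value was just over the floor. CDK1, the kinase of entry into mitosis, had 104 with A-485 in SKMEL5, against 1022 and 1084 with DMSO, and 1536 with A-485 in WM2664, against 2359 and 2237 with DMSO. It fell in both lines, 2.76 further on the log2 scale in SKMEL5 (SE 0.09, adjusted p = 2.98e-06). CDC45, part of the replicative helicase, had 32, the floor, with A-485 in SKMEL5, against 481 and 344 with DMSO, and 399 with A-485 in WM2664, against 634 and 534 with DMSO.

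At 6 h the same 4 genes gave no such gap. RRM2 had 6513 with A-485 in SKMEL5, against 4025 and 4040 with DMSO, and 5611 with A-485 in WM2664, against 4062 and 4114 with DMSO, so it rose in both lines. The 6 h line differences of RRM2, HJURP, CDK1 and CDC45 were 0.23, -0.03, 0.21 and -0.18, none of them called.

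Other genes with a large negative 24 h difference were CDC6, which loads the helicase (-3.12), MCM10 (-2.90), ESCO2, an acetyltransferase of cohesin (-2.93), CCNE2, cyclin E2 (-2.83), AURKB, a mitotic kinase (-2.66), UHRF1, which maintains DNA methylation (-2.60), and DTL, a receptor of a ubiquitin ligase (-2.47). CDC45, MCM10 and ESCO2 were at the floor in SKMEL5 with A-485, so their differences, -3.12 for CDC45, bound the size from below. CDC6 and AURKB changed by -3.72 and -4.02 in SKMEL5, with lowest DMSO group means of 432 and 549, and so may be near the floor too. CCNE2 had 67.1 with A-485 in SKMEL5, against 437 and 445 with DMSO, and 561 with A-485 in WM2664, against 520 and 517 with DMSO, and its change in WM2664 was 0.11 and not called. Among Mitosis genes, SPC25, CDCA8 and NDC80 (kinetochore and passenger complex) had differences of -2.34, -2.28 and -2.07, and UBE2C, a ubiquitin-conjugating enzyme of mitotic exit, -2.40. The 5 DNA replication genes with no call were RFC5 (0.41), PRIM2 (-0.51), TIMELESS (-0.19), UNG (-0.38) and SLBP (-0.40).

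The promoters of the 2 genes with the largest 24 h difference in each of these lists are printed because the lists moved together. They run from 250 bases before to 50 bases after the gene start, from RefSeq on GRCh38.p14, 5′ to 3′ on the strand of the gene. Capitals mark 3 motifs on either strand, the E2F motif (TTTCCCGC, TTTCGCGC, TTTGCCGC or TTTGGCGC), the CHR (TTTGAA) and the CCAAT box (CCAAT, or ATTGG on the other strand), which do not overlap here.
RRM2 (DNA replication, chr2:10122489-10122788, plus strand): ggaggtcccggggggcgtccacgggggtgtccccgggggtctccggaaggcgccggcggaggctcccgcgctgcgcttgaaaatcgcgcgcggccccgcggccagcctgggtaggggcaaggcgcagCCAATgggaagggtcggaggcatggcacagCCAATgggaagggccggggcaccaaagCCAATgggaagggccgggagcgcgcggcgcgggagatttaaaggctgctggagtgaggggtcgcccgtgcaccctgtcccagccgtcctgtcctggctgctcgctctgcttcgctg
CDC45 (DNA replication, chr22:19479670-19479969, plus strand): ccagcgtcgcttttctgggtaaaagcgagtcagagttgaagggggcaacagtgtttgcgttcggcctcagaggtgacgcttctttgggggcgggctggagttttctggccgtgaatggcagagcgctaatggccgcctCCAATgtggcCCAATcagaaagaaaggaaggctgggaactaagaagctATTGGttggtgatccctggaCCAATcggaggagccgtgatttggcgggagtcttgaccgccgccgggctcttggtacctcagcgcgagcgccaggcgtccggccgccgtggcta
HJURP (Mitosis, chr2:233854486-233854785, minus strand): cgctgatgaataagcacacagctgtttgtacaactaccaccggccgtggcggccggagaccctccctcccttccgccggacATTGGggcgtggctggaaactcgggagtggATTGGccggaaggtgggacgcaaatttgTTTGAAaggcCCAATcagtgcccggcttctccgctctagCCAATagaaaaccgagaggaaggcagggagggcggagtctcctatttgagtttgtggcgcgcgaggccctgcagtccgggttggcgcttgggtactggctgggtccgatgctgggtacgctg
CDK1 (Mitosis, chr10:60778081-60778380, plus strand): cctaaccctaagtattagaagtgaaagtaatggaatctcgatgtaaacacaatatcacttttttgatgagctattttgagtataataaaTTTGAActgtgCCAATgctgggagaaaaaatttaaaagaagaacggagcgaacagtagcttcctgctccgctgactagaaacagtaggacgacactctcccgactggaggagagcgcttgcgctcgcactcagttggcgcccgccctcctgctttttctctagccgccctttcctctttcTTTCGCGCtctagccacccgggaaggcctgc

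RRM2 holds 3 CCAAT boxes, CDC45 4, HJURP 4 with 1 CHR, and CDK1 1 with 1 CHR and 1 E2F motif. Of 40 DNA replication genes with a promoter in the table, 45.0% held an E2F motif, 5% a CHR and 55.0% a CCAAT box. Of 64 Mitosis genes, 9.38% held an E2F motif, 64.1% a CHR and 71.9% a CCAAT box. Over all 27305 promoters of this length the shares were 3.33%, 15.4% and 35.7%, and over the 6141 of the 7243 genes that matched they were 6.11%, 10.0% and 38.5%. The 43 MITF program promoters gave 2.33%, 9.30% and 32.6%. A match says only that these letters are in the window.

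Of 25 genes of G1 and E2F control, 13 had a negative difference called at 24 h and 1, the pocket protein RBL2 (0.54), a positive one, with a median of -0.56. Over all 7243 genes, 8.37% were called negative and 7.46% positive. With no scaling, 5 of the 25 were called negative and 0 positive. CCND3, cyclin D3, moved in opposite directions. It had 336 with A-485 in SKMEL5 at 24 h, against 574 and 547 with DMSO, and 425 with A-485 in WM2664, against 260 and 208 with DMSO. The change was -0.74 in SKMEL5 and 0.87 in WM2664, both called, with a difference of -1.61 ± 0.17 (SE, limma, adjusted p = 0.000731). At 6 h it had 619 with A-485 in SKMEL5, against 705 and 702 with DMSO, and 595 with A-485 in WM2664, against 286 and 286 with DMSO, a difference of -1.24.

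CCND1, cyclin D1, had 829 with A-485 in SKMEL5 at 24 h, against 1441 and 1583 with DMSO, and 2865 with A-485 in WM2664, against 2790 and 2514 with DMSO. Its difference was -0.98 at 24 h, and at 6 h it was -0.27 and not called. CCNE1, cyclin E1, was called at 6 h (-1.15) and not at 24 h (0.13), and its 6 h call was lost in 14 of 27 alternatives, among them leaving out either 6 h DMSO array of WM2664. CDK2 and CKS1B, a kinase of the G1 to S step and its small partner, had 24 h differences of -0.48 and -1.46, and E2F8, an E2F repressor, -1.90 with SKMEL5 at the floor.

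Of 16 CDK inhibitors and quiescence genes, 6 were called at 24 h, each positive (CDKN1B, CDKN1C, CCNG1, FOXO1, GAS1 and CDC14B), against 7.46% positive calls over all 7243 genes. At 6 h, 3 were positive and 2 negative, against 2.13% and 1.86%. The 24 h median was 0.35. With no scaling it was -0.08, or 0.17 above the shifted median of all genes, and 0 of the 16 were called. For GAS1 and CDKN1C the positive 24 h difference was a smaller fall in SKMEL5 (-1.38 and -1.57) than in WM2664 (-1.80 and -2.45). CDKN1B and CDC14B rose in SKMEL5 at 24 h (0.57 and 0.61). CDKN1B, the CDK inhibitor p27, had 1814 with A-485 in SKMEL5, against 1204 and 1249 with DMSO, and 1145 with A-485 in WM2664, against 991 and 1055 with DMSO, a difference of 0.40 that was -0.015 without scaling. CDKN1C, the CDK inhibitor p57, was at the floor of 32 with A-485 in WM2664. Its difference of 0.88 was -0.12 with a floor of 64, its other probe sets above the floor gave 0.12, 0.50 and -1.16, and its call was lost in 12 of 27 alternatives. The call of GAS1 was lost in 21 of 26. Of 19 genes of homologous recombination and Fanconi repair, 13 had a negative difference called at 24 h and 0 a positive one, with a median of -1.06. Over all 7243 genes 8.37% were called negative, and with no scaling 9 of the 19 were. The 13 negative genes include BRCA1 (-1.59), BLM (-1.59), BRIP1 (-1.99), RAD51AP1 (-2.24), EXO1 (-2.24, SKMEL5 at the floor) and FANCI (-1.27). BLM, a DNA helicase, differed at 6 h too (-0.87).

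**Figure D3:**
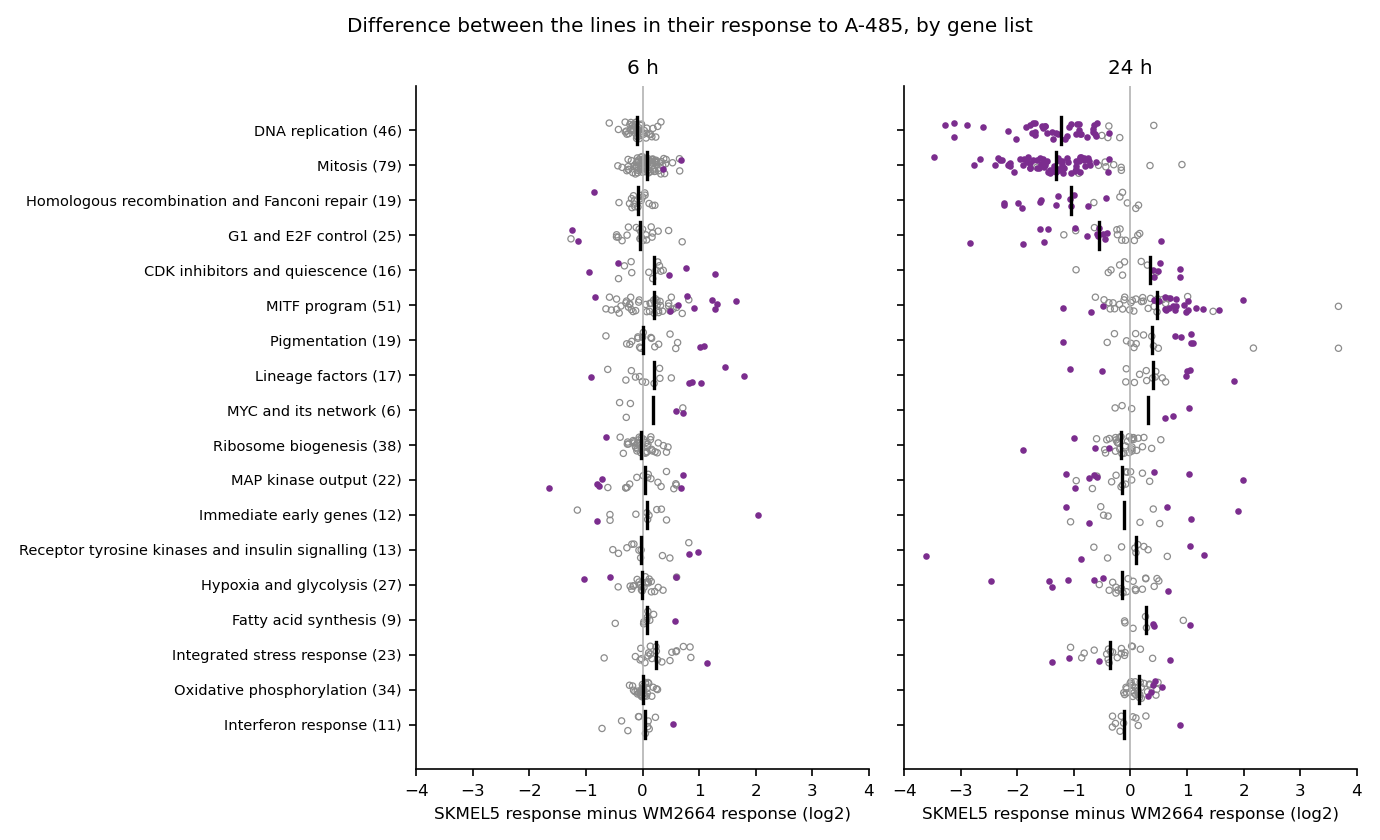
Difference between the lines in their change under A-485 (log2, SKMEL5 minus WM2664) for the members of 18 gene lists, with the number of members in brackets, at 6 h (left) and 24 h (right). Filled points have an adjusted p under 0.05 and bars are medians. The upper 4 lists sit near 0 at 6 h and to the left at 24 h, with medians of -1.22, -1.32, -1.06 and -0.56.

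MITF and its program fell further in WM2664. MITF had 2701 with A-485 in SKMEL5 at 6 h, against 6851 and 6784 with DMSO, and 831 with A-485 in WM2664, against 5066 and 5126 with DMSO. At 24 h it had 4714 with A-485 in SKMEL5, against 6600 and 6712 with DMSO, and 1762 with A-485 in WM2664, against 4981 and 5044 with DMSO. In each line and at each time the A-485 array lay below both controls, and the difference was 1.28 ± 0.12 at 6 h (SE, limma, adjusted p = 0.00115) and 1.01 ± 0.12 at 24 h (adjusted p = 0.00138). A second bright probe set gave 1.62 and 1.05, and a dim one, with a mean scaled intensity of 57.4, gave -1.71 and -1.57.

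Of 51 genes of the MITF program, 8 were positive and 1 negative at 6 h, and 19 were positive and 3 negative at 24 h, with medians of 0.21 and 0.47. Positive calls in the 7243 genes were 2.13% at 6 h and 7.46% at 24 h. The program fell in both lines, with 47 of 51 below both DMSO arrays in each line at 24 h, by a median of -0.85 in SKMEL5 and of -1.37 in WM2664. Called lower at 24 h were 39 of the 51 in SKMEL5 and 41 in WM2664, against 1588 and 1498 of all 7243 genes. The program averaged 9.48 on the log2 scale with A-485 in SKMEL5 at 24 h, against 10.59 and 10.56 with DMSO, and 8.48 with A-485 in WM2664, against 10.01 and 10.03 with DMSO. With no scaling, 1 member was called positive at 24 h and 0 negative, and the median was 0.09, or 0.34 above that of all genes. Without the 3 arrays that stood apart, 13 were called positive.

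Among program members, PPARGC1A, a coactivator of mitochondrial genes, had 273 with A-485 in SKMEL5 at 24 h, against 679 and 714 with DMSO, and 32, the floor, with A-485 in WM2664, against 302 and 343 with DMSO. Its difference of 1.98 is thus a bound from below. The differences of DSTYK (1.15), GMPR (1.27), EDNRB, the endothelin receptor of melanocytes (0.99), and LZTS1 (0.62) at 24 h were positive too. The 3 negative ones were CDK2 (-0.48), HPS4 (-1.19) and GPR137B. HPS4, a factor of lysosome-related organelle assembly, had 188 with A-485 in SKMEL5 at 24 h, against 1229 and 1135 with DMSO, and 78.6 with A-485 in WM2664, against 226 and 208 with DMSO.

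**Figure D4:**
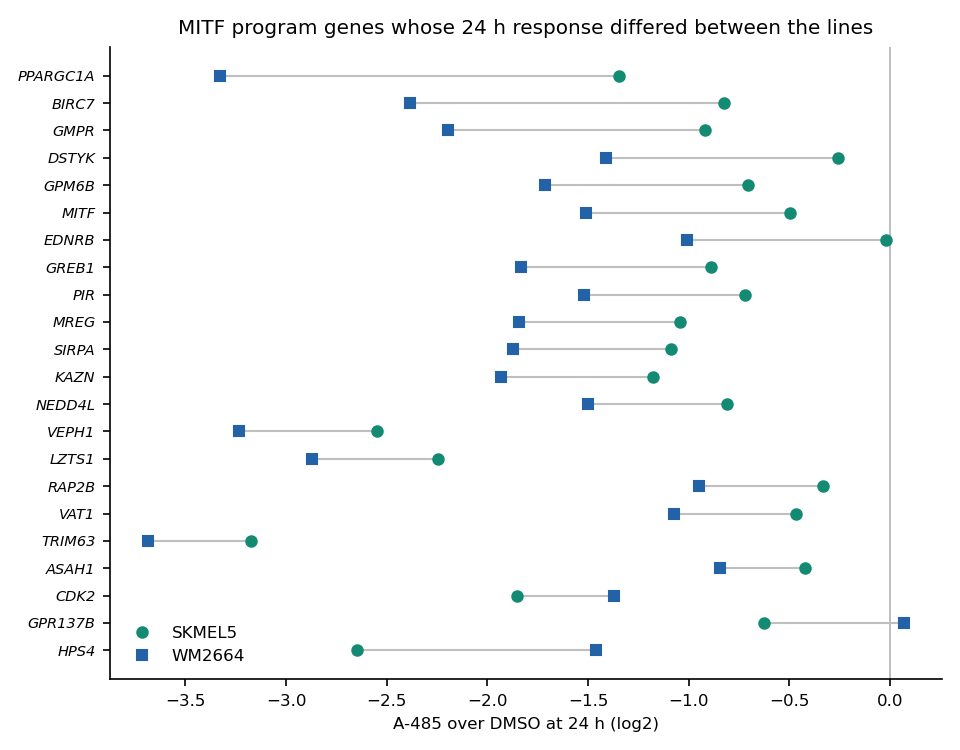
Change under A-485 at 24 h (log2, A-485 over DMSO) in SKMEL5 (green circles) and WM2664 (blue squares) for the 22 MITF program genes with a called difference. WM2664 lies left of SKMEL5 for 19 genes and right of it for CDK2, GPR137B and HPS4.

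Of 19 pigmentation genes, 5 were positive and 1 negative at 24 h, with a median of 0.38, while over all 7243 genes 7.46% were called positive and 8.37% negative. With no scaling, 0 were called positive and 0 negative, and the median was 0.03, or 0.29 above that of all genes. MLPH, which links melanosomes to actin transport, had differences of 1.02 at 6 h and 1.10 at 24 h. SLC45A2, a melanosomal transporter, and GPR143, a melanosomal receptor, had 1.07 and 1.06 at 24 h. TYRP1 and MLANA, described here for values seen in the data, were not called. TYRP1, a melanosomal enzyme, had 7299 with A-485 in SKMEL5 at 24 h, against 9366 and 9117 with DMSO, and 245 with A-485 in WM2664, against 3957 and 4001 with DMSO. Its difference was 3.68 ± 1.11 (SE, limma, adjusted p = 0.0682) with all 18 arrays and 3.68 (adjusted p = 6.45e-06) without the A375 DMSO array of 6 h, replicate 1, which is 1 of the 3 that stood apart. MLANA, a melanosomal protein, had 9623 with A-485 in SKMEL5, against 11779 and 11652 with DMSO, and 528 with A-485 in WM2664, against 2948 and 2856 with DMSO. The adjusted p of its difference of 2.17 was 0.378 with that A375 array and 0.000144 without it. Leaving out replicate 2 of that A375 group in place of replicate 1 gave the same adjusted p-values.

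Among 17 lineage factors, 5 were positive and 1 negative at 6 h, and 4 positive and 2 negative at 24 h. Over all 7243 genes, 2.13% were called positive and 1.86% negative at 6 h, and 7.46% and 8.37% at 24 h. With no scaling, 0 of the 17 were positive at either time and 1 was negative, at 24 h. TFAP2C, a factor of the AP-2 family, had 199 with A-485 in SKMEL5 at 6 h, against 206 and 198 with DMSO, and 511 with A-485 in WM2664, against 1794 and 1792 with DMSO. Its difference was 1.79 at 6 h and 1.83 at 24 h. SOX10, the factor upstream of MITF, went the other way at 6 h. It had 774 with A-485 in SKMEL5, against 3107 and 3300 with DMSO, and 1468 with A-485 in WM2664, against 3072 and 3368 with DMSO, a difference of -0.92 (adjusted p = 0.032) that was -0.07 at 24 h. The 6 h call was lost in 14 of 27 alternatives, among them leaving out any 6 h DMSO array of either line. LEF1, a WNT pathway factor, was negative at 24 h (-1.07), and ERBB3, a neuregulin receptor, positive (1.06), as at 6 h (0.82). SNAI2 was positive at 24 h (1.00) and TBX2 at 6 h (1.46), but these calls were lost in 16 and 18 of 27 alternatives, both of them with the replicate block and on leaving out any 6 h DMSO array of either line, and that of TBX2 also without the 3 arrays that stood apart.

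MYC fell in both lines and further in WM2664. It had 196 with A-485 in SKMEL5 at 6 h, against 2089 and 2058 with DMSO, and 124 with A-485 in WM2664, against 2130 and 2177 with DMSO. The difference was 0.71 at 6 h and 1.03 at 24 h. In its network of 6 genes, 3 were positive at 24 h and 0 negative, with a median of 0.32. With no scaling, 0 of the 6 were called, and the median was -0.08, or 0.17 above that of all genes. Of 38 ribosome biogenesis genes, 0 were positive and 4 negative at 24 h, with a median of -0.16, while over all 7243 genes 7.46% were called positive and 8.37% negative. ODC1, the first enzyme of polyamine synthesis, had 1321 with A-485 in SKMEL5 at 24 h, against 4120 and 4066 with DMSO, and 1005 with A-485 in WM2664, against 812 and 857 with DMSO, a difference of -1.90.

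Among the 12 genes with the largest positive difference at 24 h were several secreted and membrane proteins that fell further in WM2664. ADGRG1, an adhesion receptor, had 1025 with A-485 in SKMEL5 at 24 h, against 2178 and 1830 with DMSO, and 152 with A-485 in WM2664, against 3243 and 3339 with DMSO. Its difference was 1.07 at 6 h and 3.47 ± 0.14 at 24 h (SE, limma, adjusted p = 1.02e-05). PI15, a peptidase inhibitor, had 311 with A-485 in SKMEL5, against 1118 and 1137 with DMSO, and 77.5 with A-485 in WM2664, against 1828 and 1842 with DMSO, a difference of 2.71. A dimmer probe set of PI15 gave 0.89. CCN3, a matricellular protein, had 180 with A-485 in SKMEL5, against 573 and 547 with DMSO, and 81.2 with A-485 in WM2664, against 1287 and 1349 with DMSO, a difference of 2.38 that was -0.03 at 6 h. MFSD12, a lysosomal and melanosomal transporter, had 3009 with A-485 in SKMEL5, against 3608 and 3450 with DMSO, and 639 with A-485 in WM2664, against 3514 and 3533 with DMSO, a difference of 2.23. Another bright probe set of MFSD12 gave 0.89.

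The other genes among the 12 with a large positive 24 h difference were LINC00520 (2.70), P2RX7, an ATP-gated channel (2.31), CHCHD10, a mitochondrial protein (2.14), SLFN5 (2.03), AHNAK2 (2.03), IL6R, the interleukin 6 receptor (2.00), PPARGC1A and IRF2BP2 (1.92). The call of IL6R was lost in 9 of 27 alternatives, among them leaving out either 24 h DMSO array of SKMEL5, and its value ran from 0.46 with the mean of probe sets to 2.11. The call of SLFN5 was lost in 5, among them both fits of the 12 arrays alone. Both were lost without the 3 arrays that stood apart. IRF2BP2, a corepressor, had 969 with A-485 in SKMEL5 at 24 h, against 1163 and 1110 with DMSO, and 348 with A-485 in WM2664, against 1371 and 1739 with DMSO. P2RX7 differed at 6 h too (1.28). Averaged over times, STXBP2 (1.65) and ABCB5, a transporter (1.55), joined this group, as did a probe set annotated to MIR146A, which is given no value because the array does not tell the miRNA from its host transcript. Another ABCB5 probe set of like intensity gave 0.58 averaged and -0.06 at 24 h. A dimmer one gave 0.78 averaged and 0.51 at 24 h.

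FGFR1, a fibroblast growth factor receptor, rose in WM2664 at 24 h with no call in SKMEL5. It had 131 with A-485 in SKMEL5 at 24 h, against 173 and 153 with DMSO, and 1800 with A-485 in WM2664, against 182 and 182 with DMSO. The difference was -3.62 ± 0.24 (SE, limma, adjusted p = 9.97e-05), with a change of 3.31 in WM2664 and of -0.31 in SKMEL5, which was not called. At 6 h it had 271 with A-485 in SKMEL5, against 205 and 183 with DMSO, and 328 with A-485 in WM2664, against 176 and 173 with DMSO, a difference of -0.43 that was not called. Of 7 probe sets, 3 besides the one used gave -3.38, -3.65 and -3.48 at 24 h, and the others -0.82, 0.22 and -0.84. Among 13 genes of receptor tyrosine kinases and insulin signalling, 2 were positive and 2 negative at 24 h, while over all 7243 genes 7.46% were called positive and 8.37% negative. IRS2, an insulin receptor adaptor, was positive at 6 h (0.98) and 24 h (1.30).

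NR4A2, an orphan nuclear receptor of the immediate early class, rose in SKMEL5. It had 2238 with A-485 in SKMEL5 at 6 h, against 525 and 489 with DMSO, and 446 with A-485 in WM2664, against 421 and 408 with DMSO. At 24 h it had 3078 with A-485 in SKMEL5, against 421 and 515 with DMSO, and 772 with A-485 in WM2664, against 405 and 472 with DMSO. The difference was 2.04 ± 0.19 at 6 h (SE, limma, adjusted p = 0.00102) and 1.91 ± 0.19 at 24 h (adjusted p = 0.000555). Its other probe sets gave 2.08 and 2.21 at 6 h. EGR1, a zinc finger factor of the same class, went the other way. It had 1568 with A-485 in SKMEL5 at 24 h, against 516 and 447 with DMSO, and 2822 with A-485 in WM2664, against 382 and 404 with DMSO, so it rose in both lines and further in WM2664 (-1.14, and -0.80 at 6 h). Of 12 immediate early genes, 3 were positive and 2 negative at 24 h, while over all 7243 genes 7.46% were called positive and 8.37% negative.

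**Figure D5:**
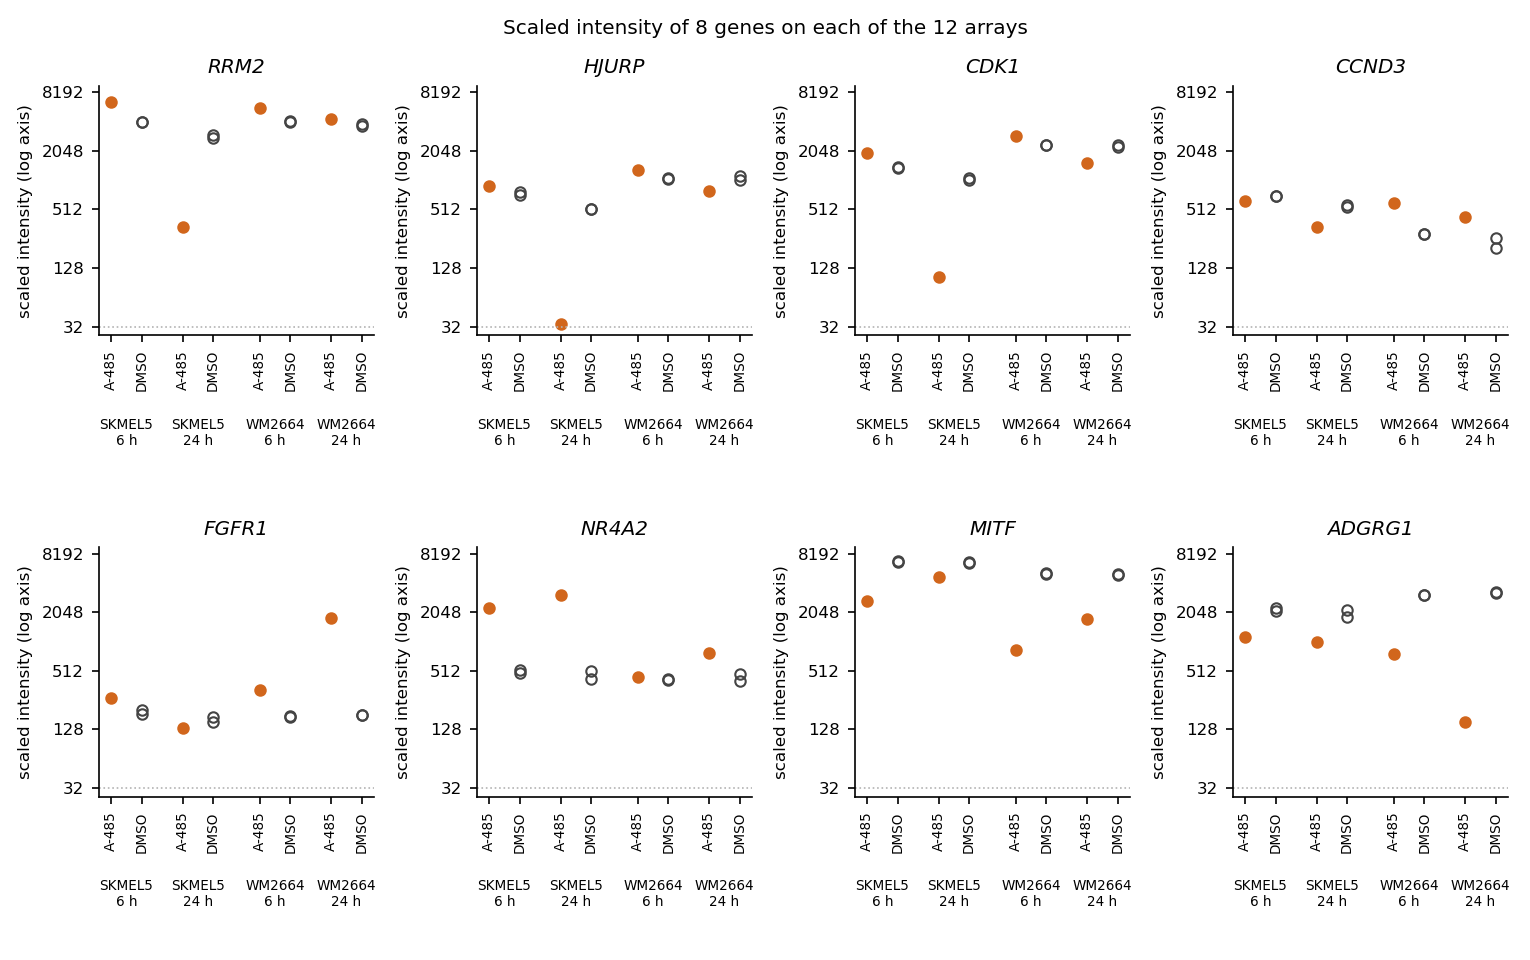
Scaled intensity (log axis) of 8 genes on each of the 12 arrays, A-485 (filled orange) left of DMSO (open), SKMEL5 left of WM2664, with the floor of 32 dotted. RRM2, HJURP and CDK1 are low with A-485 in SKMEL5 at 24 h (341, 34.4 and 104), FGFR1 is high with A-485 in WM2664 at 24 h (1800), and NR4A2 is high with A-485 in SKMEL5 (2238 and 3078).

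Of the 12 genes with the largest negative difference at 6 h, some fell in SKMEL5 and others rose in WM2664. JAG1, a Notch ligand, had 541 with A-485 in SKMEL5 at 6 h, against 2108 and 2136 with DMSO, and 198 with A-485 in WM2664, against 253 and 189 with DMSO. Its difference was -1.83, and its DMSO level was 3.45 higher (log2) in SKMEL5. KIN, a nuclear zinc finger protein, had 453 with A-485 in SKMEL5, against 925 and 873 with DMSO, and 511 with A-485 in WM2664, against 379 and 361 with DMSO (-1.46, and -1.88 at 24 h). SPRY1, a feedback inhibitor of MAP kinase signalling, had 198 with A-485 in SKMEL5, against 930 and 1077 with DMSO, and 216 with A-485 in WM2664, against 348 and 349 with DMSO (-1.65). Its call was lost in 12 of 27 alternatives, among them leaving out any 6 h DMSO array of either line and leaving out the 3 arrays that stood apart.

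Other negative genes at 6 h were PIK3R3, a regulatory subunit of PI3-kinase (-1.47), TPST1 (-1.43), ITPKB, an inositol kinase (-1.31), CD83 (-1.25), CCND3, SYNJ1 (-1.20), KAT6B, a histone acetyltransferase (-1.20), and ARMCX2 (-1.16). KAT6B and ARMCX2 rose in WM2664 at 6 h (1.03 and 1.33), and their changes in SKMEL5, -0.17 and 0.17, were not called. With the mean of probe sets the difference was -0.62 for CCND3 and -0.56 for KAT6B, which then lost its call. The call of SYNJ1 was lost in 9 of 27 alternatives, among them both fits of the 12 arrays alone and leaving out either 6 h DMSO array of SKMEL5 or of A375. On the positive side stood NR4A2, LRATD2 (1.84), TFAP2C, GALNT3, a glycosyltransferase (1.66), ADAMTS1, a secreted protease (1.57), ANKS1A (1.55), ABCB5 (1.54), PRKCD, a protein kinase C, DAAM2 (1.49), TBX2 and the MIR146A probe set. The calls of ABCB5 and DAAM2 were lost in 9 and 10 of 27 alternatives, both of them on leaving out either 6 h DMSO array of WM2664 or replicate 1 of SKMEL5, and without the 3 arrays that stood apart. That of ABCB5 was lost without replicate 2 of SKMEL5 too. NFATC2 was also among the 12, but its SKMEL5 array with A-485 was at the floor, so its difference of 1.73 is an upper bound and may be too large, as may its call.

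GALNT3 and ADAMTS1 differed at 6 h and were not called at 24 h (-0.31 and -0.33), and the change between the times was called for both. GALNT3 had 252 with A-485 in SKMEL5 at 6 h, against 1192 and 1229 with DMSO, and 34.1 with A-485 in WM2664, against 537 and 495 with DMSO, a difference of 1.66. At 24 h it had 72.6 with A-485 in SKMEL5, against 1241 and 1234 with DMSO, and 38 with A-485 in WM2664, against 496 and 552 with DMSO, a difference of -0.31. WM2664 was thus near the floor at both times while SKMEL5 reached a low level only at 24 h.

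Of 22 MAP kinase output genes, 2 were positive and 4 negative at 6 h, and 3 positive and 5 negative at 24 h. Over all 7243 genes, 2.13% were called positive and 1.86% negative at 6 h, and 7.46% and 8.37% at 24 h. DUSP6, an ERK phosphatase, was negative at both times (-0.71 and -0.65), as was SPRED1, an inhibitor of the pathway, at 6 h (-0.77). Of 27 hypoxia and glycolysis genes, 1 was positive and 6 negative at 24 h. ADM, the vasodilator peptide adrenomedullin, had 709 with A-485 in SKMEL5 at 24 h, against 2109 and 2035 with DMSO, and 4143 with A-485 in WM2664, against 2147 and 2241 with DMSO, a difference of -2.46 (adjusted p = 1.33e-05). SLC2A1, a glucose transporter, had 174 with A-485 in SKMEL5, against 235 and 255 with DMSO, and 1197 with A-485 in WM2664, against 623 and 622 with DMSO (-1.44). HK2, a hexokinase, and VEGFA, an angiogenic factor, had -1.11 and -1.38. The call of VEGFA was lost in 7 of 26 alternatives, among them leaving out replicate 1 of SKMEL5 or either array of WM2664 from the 24 h DMSO arrays.

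At 24 h, over all 7243 genes 7.46% were called positive and 8.37% negative, and the lists that follow had at most 3 members called in a direction. Of 12 BCL2 family genes, 1 was negative at 24 h, a share near that of all genes. This was PMAIP1, the BH3-only protein NOXA, which had 64 with A-485 in SKMEL5 at 24 h, against 449 and 432 with DMSO, and 368 with A-485 in WM2664, against 523 and 619 with DMSO (-2.15). BCL2L1, which encodes BCL-XL, was negative at 6 h (-1.05), a call lost in 6 of 27 alternatives, among them the mean of probe sets (-0.063) and leaving out replicate 2 of the 6 h DMSO arrays of SKMEL5. Of 18 p53 target genes, 3 were positive and 2 negative at 24 h. Of 9 fatty acid synthesis genes, 3 were positive, among them SCD, the stearoyl-CoA desaturase (1.05). With no scaling, 0 of these 9 and 0 of the 18 p53 target genes were called at 24 h. Of 23 integrated stress response genes, 1 was positive (CEBPB, 0.69) and 3 negative, with a median of -0.35, and of 11 interferon response genes 1 was positive (IFIT3, 0.88).

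EP300 and CREBBP, which encode the targets of the compound, did not pass the test for a difference between the lines. EP300 had 615 with A-485 in SKMEL5 at 24 h, against 335 and 498 with DMSO, and 622 with A-485 in WM2664, against 410 and 413 with DMSO, a difference of -0.01. CREBBP had 797 with A-485 in SKMEL5, against 462 and 427 with DMSO, and 789 with A-485 in WM2664, against 426 and 434 with DMSO, a difference of -0.03. At 6 h the differences were -0.02 for EP300 and 0.07 for CREBBP. Within a line, CREBBP rose at both times in both lines (0.65 to 0.88), and EP300 rose at 24 h (0.59 in SKMEL5 and 0.60 in WM2664) and missed the threshold at 6 h. A p that misses the threshold does not show that the lines responded alike.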

How the data were processed

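The series holds 18 arrays (Affymetrix HG-U133 Plus 2.0) of RNA from 3 human melanoma lines, and 12 of them are described. Per the labels' protocols, RNA was taken with Qiazol and RNeasy columns and 200 ng labelled with a 3' IVT kit. The authors deposited 1 linear intensity per probe set and array; how these were background corrected and scaled is not given in the sources used here. Of 54613 probe sets, 41091 had 1 gene symbol.

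Intensities were quantile normalized over the 18 arrays, set to a floor of 32 and taken to log2. The probe set with the highest mean stood for its gene, and genes above the floor on at least 2 of the 18 arrays were tested. limma 3.58.1 in R 4.3.3 was fitted to 12 group means of all 18 arrays, with 6 residual degrees of freedom from the 6 DMSO pairs and a prior of 1.57, and p-values were adjusted by Benjamini-Hochberg over 13696 genes. Gene lists were counted, not tested. Fitted to simulated data, the procedure found 84% of members changed by 1 and 95% of those changed by 2 (log2) at 24 h, and 79% and 98% at 6 h. The simulation gave A-485 arrays the spread of the DMSO arrays, so it could not test that assumption. It changed only members whose SKMEL5 level with A-485 was above 128 before the change, so it does not cover genes that start near the floor. Alternatives covered scaling, floor, filter, probe set, samples in the fit and each DMSO array left out.

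The genes to describe and the 35 lists were chosen with earlier results of these data known. Named genes were MITF, EP300 and CREBBP, in each direction the 12 called genes that differed most at 6 h, at 24 h and averaged whose sign held for every choice of 1 DMSO array per line, and up to 8 called members of each list. TYRP1, MLANA, CENPN, KIF15, GPR137B, RBL2, the 4 genes at the intensity limit and the 5 replication genes with no call were named outside that rule, after their values were seen. Some genes that the rule names are not reported here. The number of arrays limits the precision, and each A-485 group is 1 array. Promoters were matched by symbol to RefSeq sequences of GRCh38.p14 and searched on both strands.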

Additional observations from a re-analysis of the deposited data

Results flagged for a closer look

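The change under A-485 differed between SKMEL5 and WM2664, by a test of the difference itself, for 289 genes at 6 h, 1146 at 24 h and 1167 averaged, and this line difference itself differed between 24 h and 6 h for 355 genes. Among the genes named for size, the line difference moved toward lower values in SKMEL5 from 6 h to 24 h for RRM2 (-3.52), HJURP (-3.45), FGFR1 (-3.19), CDK1 (-2.97), CDC45 (-2.94), AURKB (-2.94), MCM10 (-2.76), CDC6 (-2.70), CCNE2 (-2.58), UHRF1 (-2.45), DTL (-2.22), GALNT3 (-1.97), ADAMTS1 (-1.91), ADM (-1.42) and LRATD2 (-0.71), in log2. It moved the other way for ADGRG1 (2.40), LINC00520 (2.39), PI15 (2.06), CHCHD10 (1.84), MFSD12 (1.36), PPARGC1A (1.28), P2RX7 (1.03) and PIK3R3 (0.99). Over 27 alternatives, this call was lost in 20 for PIK3R3, in 10 for MFSD12, in 5 for PPARGC1A and in 4 for LRATD2. For PIK3R3 these include leaving out any 1 of the 6 h DMSO arrays, and for MFSD12 leaving out either 6 h DMSO array of SKMEL5, replicate 1 of WM2664 at 6 h, replicate 2 of SKMEL5 at 24 h or either array of WM2664 at 24 h. CDC45 and MCM10 were at the floor in SKMEL5 and PPARGC1A in WM2664 with A-485 at 24 h. In SKMEL5, HJURP was just over it, and CDC6 and AURKB may be near it. The other probe set of MFSD12, also bright, gave a change between times of -0.11, and that of PI15, a dimmer one, gave 0.04. For both genes the change thus rests on 1 probe set.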

How the results depend on the processing

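Counts of called genes are given for 6 h, 24 h, averaged and the change between times. With no scaling they were 0, 160 (13 positive, 147 negative), 111 (15 and 96) and 0, and the median difference of all genes shifted by -0.089, -0.253 and -0.183 at 6 h, 24 h and averaged. With no scaling and a floor of 1, chosen after seeing the data, they were 0, 49, 19 and 10. At 6 h the count was 191 with 75th percentile scaling, 178 with the 12 arrays scaled and fitted alone, 140 with a floor of 16 and 450 with a floor of 64. Without cross-hybridizing probe sets it was 743 at 24 h and 223 for the change, which was 191 with the 12 arrays alone and 219 without the 3 arrays that stood apart. Leaving out 1 DMSO array at a time gave 160 to 357, 1016 to 1221, 963 to 1251 and 253 to 466. The 6 h count of 160 was without WM2664 DMSO replicate 2, and 180 without SKMEL5 DMSO replicate 1. Without those 3 arrays, 34 DNA replication, 57 Mitosis and 13 MITF program genes (positive for the last) were called at 24 h. With no scaling, 21 DNA replication and 44 Mitosis genes were called negative.

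The sign turned for CDKN1B at 24 h with no scaling (-0.015, at either floor), for CDKN1C at 24 h (-0.12) and GALNT3 averaged (-0.16) with a floor of 64, and for ABCB5 at 24 h without cross-hybridizing probe sets (-0.059). The cause was not tested. With the replicate number as a block the counts were 204, 1011, 1029 and 270. Deviations of same-numbered DMSO arrays correlated at -0.03 to 0.06 over 15 pairs of groups, so same-numbered arrays shared no clear deviation. These correlations cannot show whether such arrays were handled together. The average over times without 1 time is the value at the other. No A-485 array could be left out, since each is alone in its group.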
